A study of Mus musculus with 10 samples.

Results

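Oct4 (gene symbol Pou5f1) was induced by doxycycline (DOX) in the ileum of adult mice, and gene expression was set against that of DOX-treated mice that lack the transgene. The comparison held 4 of the 10 arrays of the series, chosen by their genotype and treatment labels. The Oct4 +DOX group was 2 TetON-Oct4 samples and the rtTA +DOX group was 2 samples labelled as rtTA controls without a TetOP-Sox2 transgene. All 4 were C57BL/6 ileum, aged 6 to 8 weeks, after 2 days of 2 mg/ml DOX in drinking water with 1% sucrose, so DOX and sucrose were shared by both groups. A further group, Sox2xOct4 +DOX (TetON-Sox2 X TetON-Oct4, 2 samples, the same DOX treatment), is used where it shows how Oct4 alone differs. In a TetON mouse, DOX lets the regulator rtTA bind a tet operator and switch on the transgene. The sources used here do not name the promoter that drives rtTA, and so not the cells that could express Oct4.

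Oct4 is a POU-domain transcription factor of the early embryo and of pluripotent stem cells, where it works with Sox2 and Nanog, and it binds an octamer word in DNA. It is silent in the adult intestine, whose epithelium is renewed from crypt stem cells under Wnt and Notch signals and matures into absorptive, goblet, Paneth, enteroendocrine and tuft cells. Levels below are log2 signals minus the array's 75th percentile, so that 0 is the level of a fairly bright probe, and a difference of 1 between groups is a doubling. A gene is said to have risen or fallen only at an adjusted p under 0.05 in limma.

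Pou5f1 itself came first, as the check of the labels. It was read by 1 probe, whose 60 bases lie on chromosome 17 of NCBI36/mm8 (35118388 to 35118448). The sequence is shown because every statement on the induction rests on it.
Pou5f1 probe: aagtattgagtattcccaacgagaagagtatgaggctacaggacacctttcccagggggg
Its level was 6.20 and 4.79 in Oct4 +DOX, against -9.28 and -8.57 in rtTA +DOX, where it was not well above background on either array. The rise was at least 4920-fold (log2 change 14.42 ± 0.62, SE, n = 2 against 2, limma adjusted p = 7.4e-05), the largest rise of all genes tested. Folds given as "at least" compare the brighter group with the lowest signal well above background on each array of the dimmer one. Whether the signal came from the transgene, from the endogenous gene or from both was not tested. The probes of Sox2 and Nanog were not well above background on any array. The Sox2 probe was at -8.88 and -7.83 even in Sox2xOct4 +DOX, which carries a Sox2 transgene. Its dim signal therefore does not show whether Sox2 RNA was present. Cdx2, the master regulator of intestinal identity, was at 5.25 and 6.11 in Oct4 +DOX and at 5.62 and 5.90 in rtTA +DOX (log2 change -0.08 ± 0.49, adjusted p = 0.97), so the groups overlapped.

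The 75th percentile was a signal of 777 and 544 on the Oct4 +DOX arrays and of 1613 and 913 on the rtTA +DOX arrays. Between 63.5 and 70.5% of the probes of each array stood well above background. Replicates correlated with r of 0.969 in Oct4 +DOX and 0.983 in rtTA +DOX, against 0.952 to 0.962 between the groups. The Oct4 +DOX arrays lay on a slide of their own and the rtTA +DOX arrays shared another slide with Sox2xOct4 +DOX, so slide and genotype cannot be told apart in any comparison of Oct4 +DOX. Probes below background on all 4 arrays (11069) had a median difference of 0.76 on the log2 scale, higher in Oct4 +DOX, whose 75th percentiles were the lower ones. The Y-linked gene Eif2s3y was at 1.78 and -7.86 in Oct4 +DOX and at -9.23 and -8.49 in rtTA +DOX. The brightest probe of Xist, which is transcribed from the inactive X chromosome of females, was at -6.80 and 2.62 in Oct4 +DOX and at 3.12 and 3.21 in rtTA +DOX, and the Y-linked genes Ddx3y and Kdm5d had the pattern of Eif2s3y. The Oct4 +DOX samples thus had the sex-linked transcripts of a male (replicate 1) and a female (replicate 2), and both rtTA +DOX samples those of females. Without Oct4 +DOX replicate 1, 191 genes were called, of which 100 were among those called on all 4 arrays. The sex-linked transcripts place the 2 Oct4 +DOX samples in different animals. For rtTA +DOX no label gives separate mice, so its share of the spread behind the p-values may be technical.

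**Figure D1:**
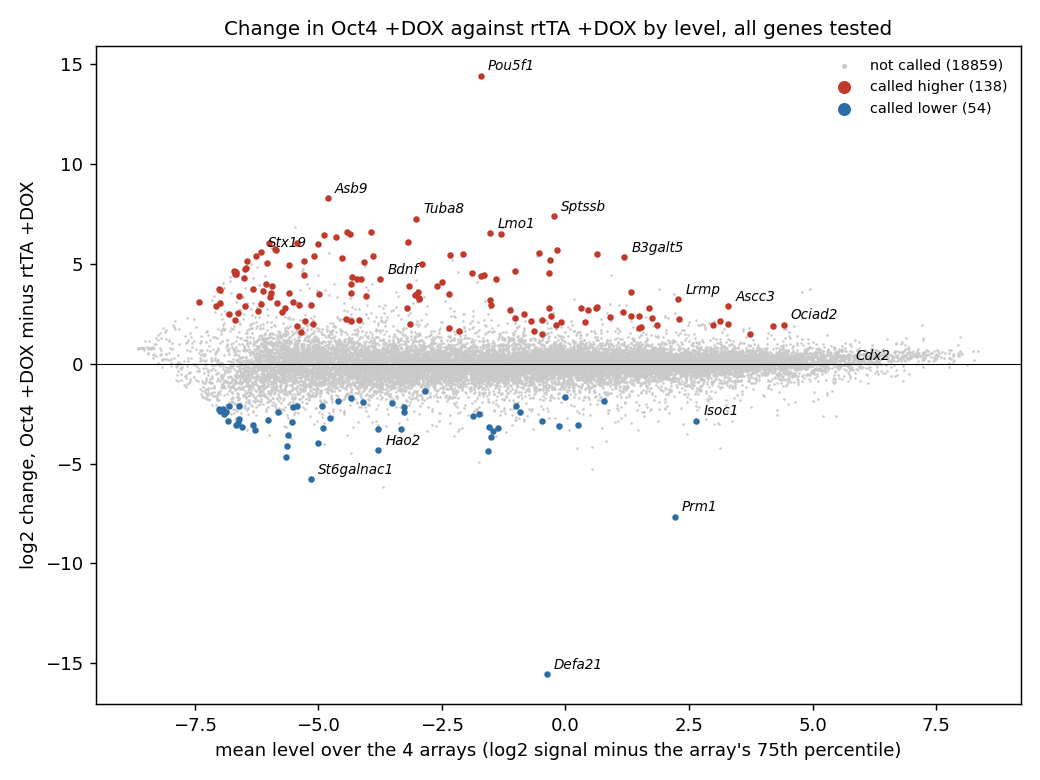
Each point is 1 of the genes tested, with its mean level over the 4 arrays on the x axis (log2 signal minus the array's 75th percentile) and the log2 change of Oct4 +DOX minus rtTA +DOX on the y axis. The 138 genes called higher are red and the 54 called lower are blue; Pou5f1 stands alone at 14.42, Defa21 alone at -15.56, and Cdx2 near 0.

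Of 19051 genes tested, 192 (1.01%) were called, 138 higher (0.724%) and 54 lower (0.283%) in Oct4 +DOX. Each count of called list members below is to be read beside these shares. Of the 44 gene lists, 28 had no member called. The median change of all genes was 0.01 on the log2 scale. The arrays of the groups did not overlap in any of the 192, as in 46.3% of all genes. With the fold taken as its lower bound in the 80 genes where 1 group was below background, 138 of the 192 exceeded 4-fold, and 39 rises and 4 falls exceeded 16-fold. At an unadjusted p under 0.05, 2537 genes (13.3%) differed, 1229 (6.45%) higher and 1308 (6.87%) lower. Of the genes that rose, 53 were not well above background on either rtTA +DOX array; of these, 34 were still called with a floor at the lowest signal above background and 9 after normexp correction. Of the genes that fell, 27 were below background on both Oct4 +DOX arrays. Under all 14 alternative settings, 19 genes stayed called, 16 of them higher. No called gene changed sign, but where arrays do not overlap, leaving out 1 array cannot change it. Of 42 called genes with several tested probes, 34 had all probes in the same direction. Without rtTA +DOX replicate 1, 159 of the 192 were no longer called, and without rtTA +DOX replicate 2, 150. The counts of calls without these arrays were 35 and 49.

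Beside Pou5f1, the rises that held in every setting were led by Asb9, which encodes a subunit that selects targets for a ubiquitin ligase. Asb9 was at -0.40 and -0.93 in Oct4 +DOX, against -9.29 and -8.64 in rtTA +DOX, where it was below background. The rise was at least 68.9-fold (log2 change 8.30 ± 0.58, limma adjusted p = 7.8e-04). Sptssb, a small subunit of the enzyme that starts sphingolipid synthesis, was at 2.69 and 4.23 in Oct4 +DOX and at -4.20 and -3.65 in rtTA +DOX, a 167-fold rise (7.38 ± 0.60, adjusted p = 0.0014). Tuba8, an alpha-tubulin, was at -0.09 and 1.30 in Oct4 +DOX and at -6.77 and -6.56 in rtTA +DOX, where 1 of 2 arrays was well above background, and rose 154-fold (7.27 ± 0.55, adjusted p = 0.0011). In each of these genes the lower Oct4 +DOX array stood far above the higher rtTA +DOX array.

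Genes of membranes and transport made up much of the rest of this stable group. Mal, a proteolipid of apical membrane sorting in epithelia, was at 2.26 and 3.08 in Oct4 +DOX and at -2.94 and -3.08 in rtTA +DOX (51.2-fold, adjusted p = 0.0014 in limma). Slc19a3, a thiamine transporter, was at -1.86 and -1.87 in Oct4 +DOX, against -7.18 and -7.14 in rtTA +DOX, where it was below background. The rise was at least 30.04-fold (log2 change 5.30 ± 0.26, limma adjusted p = 1.04e-04). Slc19a3 was the 1 called gene among 29 nutrient transporters tested (3.45%, against 1.01% of all genes), whose median change was -0.54. Stx19, a syntaxin of vesicle fusion, was at -3.60 and -3.15 in Oct4 +DOX and below background in rtTA +DOX (-9.32 and -8.61; at least 10.53-fold, adjusted p = 6.7e-04). Lrrn3 (23.5-fold) and Lrit1 (at least 20.9-fold), which encode membrane proteins with leucine-rich repeats, completed the named genes of this kind.

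**Figure D2:**
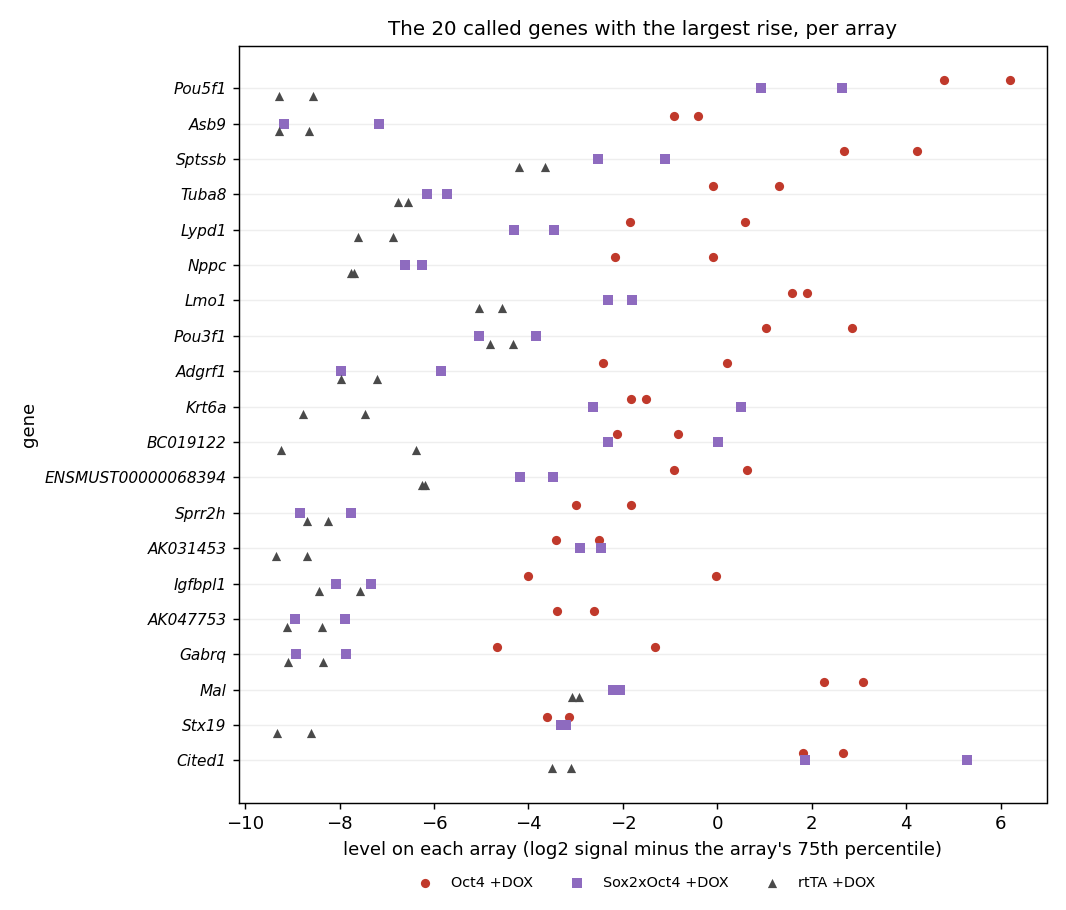
Rows are the 20 called genes with the largest rise in Oct4 +DOX against rtTA +DOX, and the x axis is the level on each array (log2 signal minus the array's 75th percentile). Red circles are the 2 Oct4 +DOX arrays, purple squares the 2 Sox2xOct4 +DOX arrays and grey triangles the 2 rtTA +DOX arrays; the red and grey points do not overlap in any row.

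Among transcriptional regulators, Pou3f1 and Lmo1 rose in every setting. Pou3f1 (Oct6), a POU-domain factor known from Schwann cells and skin, was at 1.02 and 2.86 in Oct4 +DOX, against -4.81 and -4.33 in rtTA +DOX. It was 91.2-fold higher (log2 change 6.51 ± 0.61, limma adjusted p = 0.0028). It was the 1 called gene of 8 POU-domain factors tested (12.5%, against 1.01% of all genes), whose median change was 0.37. A transcript with no gene name, 3100002H09Rik, whose probe lies 48 kb from that of Pou3f1 on chromosome 4 (NCBI36/mm8), rose at least 5.11-fold (adjusted p = 0.0021). Lmo1, a LIM-only transcription cofactor, was at 1.58 and 1.89 in Oct4 +DOX and at -5.04 and -4.55 in rtTA +DOX (92.8-fold, 6.54 ± 0.31, adjusted p = 9.6e-05).

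Other regulators rose with calls that did not hold when 1 array was left out. Irx2, an Iroquois homeobox factor, was at -2.29 and -3.17 in Oct4 +DOX and below background on both rtTA +DOX arrays (at least 16.5-fold, limma adjusted p = 0.0049). Cited1, a transcriptional co-activator, was at 1.81 and 2.67 in Oct4 +DOX and at -3.51 and -3.09 in rtTA +DOX (46.7-fold, adjusted p = 0.037). Tead4, a DNA-binding partner of YAP, rose 6.88-fold (adjusted p = 0.013) and Meis3, a homeobox partner of Hox proteins, 7.68-fold (adjusted p = 0.0093). Without rtTA +DOX replicate 1 none of these 4 was called, at log2 changes of 5.27 for Irx2, 5.33 for Cited1, 2.47 for Tead4 and 3.03 for Meis3. Without rtTA +DOX replicate 2 Irx2 (4.97), Cited1 (5.75) and Meis3 (2.86) were not called. Without Oct4 +DOX replicate 2 Cited1 (5.12) and Tead4 (2.70) were not called, and without Oct4 +DOX replicate 1 Cited1 (5.97) was not.

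No other tested gene of the pluripotency network was called. Of 29 genes listed for pluripotency and the early embryo, 26 were on the array and 17 were tested, and Pou5f1 alone was called. The median change was 0.50, against 0.01 for all genes. These genes were dim, with median levels of -2.77 and -2.09 in Oct4 +DOX and -3.20 and -3.06 in rtTA +DOX. Probes below background on all 4 arrays differed by a median of 0.76 in the same direction, and the part of this in the list was not tested. Nr0b1 (Dax1), known from embryonic stem cells, was below background in both groups (log2 change 0.96 ± 0.36, limma adjusted p = 0.29). Dppa3 (Stella) was at -4.09 and -4.40 in Oct4 +DOX and at -2.26 and -1.53 in rtTA +DOX (-2.35 ± 0.56, adjusted p = 0.10). None of 11 germ cell genes tested was called in limma (median 0.35, but -0.17 without Oct4 +DOX replicate 2). At an unadjusted p under 0.05, 3 differed, against 13.3% of all genes.

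Of 27 genes of stratified, keratinising (squamous) epithelia tested, 3 rose in Oct4 +DOX and 24 were not called (11.1% called, against 0.724% of all genes called higher). Genes bright only in Oct4 +DOX were tested through that group, so this share is no test of the list. The median change of the list was 0.24. The median level over these members was -2.28 and -1.82 on the Oct4 +DOX arrays and -3.29 and -3.27 on the rtTA +DOX arrays. Krt6a, a keratin of wounded and appendage epithelium, was at -1.82 and -1.51 in Oct4 +DOX and below background in rtTA +DOX at -8.77 and -7.47 (at least 34.4-fold, limma adjusted p = 0.021). Trp63 (p63), the regulator of stratified epithelium, was at -3.67 and -4.93 in Oct4 +DOX and below background in rtTA +DOX at -7.58 and -8.27 (at least 5.53-fold, adjusted p = 0.01). Ly6d, a surface protein of keratinocytes, was at 2.78 and 2.87 in Oct4 +DOX and at 0.64 and 1.13 in rtTA +DOX (3.85-fold, adjusted p = 0.019). In bulk tissue a larger share of such cells and more RNA per cell cannot be told apart. None of the 3 was called without rtTA +DOX replicate 1, at log2 changes of 5.81 for Krt6a, 3.97 for Trp63 and 1.70 for Ly6d, nor without rtTA +DOX replicate 2 (7.11, 3.28 and 2.19). Krt6a (6.61 and 6.30) and Ly6d (1.99 and 1.89) also lost the call without Oct4 +DOX replicate 1 and without replicate 2.

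Further genes of skin and hair were among the calls; this grouping was made after their values were seen. Dmkn (dermokine), secreted by differentiating keratinocytes, was at 0.14 and 1.24 in Oct4 +DOX and at -5.04 and -4.62 in rtTA +DOX, a 45.9-fold rise that held in every setting (limma adjusted p = 0.0014). Krtdap, another secreted keratinocyte product, whose probe lies within 11 kb of that of Dmkn on chromosome 7 (NCBI36/mm8), rose at least 3.64-fold (adjusted p = 0.018). Krt36, a hair keratin, rose 42.5-fold against rtTA +DOX, where 1 of 2 arrays was above background (limma adjusted p = 0.037). It was 1 of 2 keratins called of 33 tested (6.06%, against 1.01% of all genes, median 0.59). Its Oct4 +DOX arrays lay far apart, at -2.90 and 0.50, and its log2 change was 7.11 without Oct4 +DOX replicate 1 and 3.71 without replicate 2. Lypd3, a surface protein of suprabasal keratinocytes, rose 11.2-fold (adjusted p = 0.02) and Tchh, trichohyalin of the hair follicle, 2.81-fold (adjusted p = 0.045). Calls ended without rtTA +DOX replicate 1 for Krtdap (2.80), Krt36 (5.34), Lypd3 (2.69) and Tchh (1.60), without rtTA +DOX replicate 2 for Krt36 (5.48) and Tchh (1.38), without Oct4 +DOX replicate 2 for Krtdap (3.25), Lypd3 (3.70) and Tchh (1.47), and without Oct4 +DOX replicate 1 for Lypd3 (3.29) and Tchh (1.51), each value a log2 change.

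The Sprr2 genes, which encode small proline-rich proteins of the cornified envelope, lie side by side on chromosome 3. Of the 9 tested, 3 were called, all higher, against 0.724% of all genes called higher. The family was picked after the values of its members were seen. A gene needed only 1 group well above background to be tested, so members bright only in Oct4 +DOX were tested through it. The share is therefore no test of the family. Sprr2h was at -2.99 and -1.83 in Oct4 +DOX and below background in rtTA +DOX at -8.68 and -8.26 (at least 20.6-fold, limma adjusted p = 0.0012). Sprr2d was at -3.80 and -4.43 in Oct4 +DOX and below background in rtTA +DOX at -9.19 and -8.48 (at least 6.31-fold, adjusted p = 0.0056). Sprr2f was at -4.84 and -2.29 in Oct4 +DOX and below background in rtTA +DOX at -9.30 and -8.58 (at least 9.23-fold, adjusted p = 0.032). These 3 were below background in rtTA +DOX, while the other 6 were measured in both groups and none of them was called (log2 changes 0.31 to 0.82). Sprr2b, for one, was at 4.90 and 6.38 in Oct4 +DOX and at 4.48 and 5.16 in rtTA +DOX, so its groups overlapped. The probes of Sprr2d, Sprr2f and Sprr2h matched each other at no more than 23 of 60 bases. After normexp correction with quantile normalization none of the 3 was called. Sprr2h was called whichever array was left out. Sprr2d was not called without rtTA +DOX replicate 1 (4.37), and Sprr2f not without either rtTA +DOX array (5.02 and 5.74) or Oct4 +DOX replicate 2 (4.10).

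The promoters of this family are printed because those of all 3 called genes hold the octamer, the DNA word that Oct4 and other POU-domain factors bind, in nearly the same place. Each line gives the 80 bases from -140 to -61 before the RefSeq gene start, on the plus strand of GRCm38.p6, with the octamer ATGCAAAT in capitals as it reads on the opposite strand.
Sprr2d, chr3:92339000-92339079: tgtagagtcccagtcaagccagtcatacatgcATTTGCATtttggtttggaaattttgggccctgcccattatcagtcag
Sprr2f, chr3:92365047-92365126: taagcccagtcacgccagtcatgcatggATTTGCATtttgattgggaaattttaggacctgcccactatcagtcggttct
Sprr2h, chr3:92385545-92385624: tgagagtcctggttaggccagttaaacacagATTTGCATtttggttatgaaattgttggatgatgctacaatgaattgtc
Sprr2b, chr3:92316565-92316644: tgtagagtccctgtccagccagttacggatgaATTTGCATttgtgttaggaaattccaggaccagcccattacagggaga
Sprr2e, chr3:92352003-92352082: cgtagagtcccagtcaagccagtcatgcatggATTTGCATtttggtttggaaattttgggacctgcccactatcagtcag
Sprr2k, chr3:92432442-92432521: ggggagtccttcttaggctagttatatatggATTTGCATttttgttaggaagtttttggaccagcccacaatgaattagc
Sprr2a1, chr3:92215695-92215774: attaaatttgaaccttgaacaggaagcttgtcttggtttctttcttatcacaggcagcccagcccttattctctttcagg
The word began at -108 in Sprr2d, -112 in Sprr2f and -109 in Sprr2h. It stood at the same distance in Sprr2b (-108), Sprr2e (-108) and Sprr2k (-109), which were not called, and Sprr2a1 had none. In all, 7 of 10 Sprr2 promoters in the RefSeq table held the word, so in this family it does not separate the genes that rose from those that were not called.

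Across promoters of 300 bases (250 before to 50 after the gene start, RefSeq, GRCm38.p6), the word ATGCAAAT on either strand was found in 6 of 121 promoters of genes that rose (4.96%), in 0 of 30 promoters of genes that fell, in 1.44% of promoters of all genes tested and in 1.74% of all promoters. The table matched 95 of the 138 genes that rose and 27 of the 54 that fell. Of the 6, 3 are the Sprr2 genes above, which share ancestry and so are not independent. The other 3 are shown with 80 bases each, read in the direction of the gene, with the octamer in capitals.
Spp1, chr5:104435946-104436025, plus strand: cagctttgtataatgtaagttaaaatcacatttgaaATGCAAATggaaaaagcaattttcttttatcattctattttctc
Wwc2, chr8:47990545-47990624, minus strand: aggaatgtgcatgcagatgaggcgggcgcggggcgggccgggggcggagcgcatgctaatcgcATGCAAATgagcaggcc
Pcyt1b, chrX:93675032-93675111, plus strand: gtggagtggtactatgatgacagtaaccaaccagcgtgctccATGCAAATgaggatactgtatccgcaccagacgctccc
Spp1 (osteopontin), a secreted phosphoprotein, was at 1.58 and 1.00 in Oct4 +DOX and at -3.61 and -3.04 in rtTA +DOX (24.6-fold, limma adjusted p = 0.043). Wwc2, of the Hippo-linked WWC family, was at 2.55 and 2.32 in Oct4 +DOX and at 0.64 and 0.59 in rtTA +DOX (3.54-fold, adjusted p = 0.031). Pcyt1b, an enzyme of phosphatidylcholine synthesis, rose at least 5.02-fold (adjusted p = 0.021), but its other probe had a change of -0.48. The calls of all 3 ended whichever array was left out, at log2 changes of 4.33 to 4.91 for Spp1, 1.71 to 1.94 for Wwc2 and 3.34 to 4.17 for Pcyt1b. The composite Sox and Oct element, searched as 1 fixed spelling, was found in no promoter of the table. A match is a string of letters and not a measured site, and the part of the word in any change was not tested.

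A neurotrophin and its receptor were among the rises and were put together after their values were seen. Bdnf, brain-derived neurotrophic factor, was at -1.55 and -1.72 in Oct4 +DOX and at -5.93 and -5.79 in rtTA +DOX, an 18.7-fold rise (log2 change 4.22 ± 0.28, limma adjusted p = 6.7e-04) that was called in every setting. Ntrk2 (TrkB), the receptor for Bdnf, was at 0.12 and 1.33 in Oct4 +DOX and at -3.98 and -3.09 in rtTA +DOX (19.2-fold, adjusted p = 0.018). They were the 2 called of 6 neurotrophins and receptors tested, a family picked for them, against 0.724% of all genes called higher. Of the other 4, Ntf5 had a log2 change of 2.18 ± 0.75 (adjusted p = 0.26), Ngfr one of 0.10, Ntrk3 one of 0.67 and Ntf3 one of -0.84. Ntrk2 lost the call without Oct4 +DOX replicate 2 (3.66), without rtTA +DOX replicate 1 (3.81) and without replicate 2 (4.71).

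Single genes known from synapses or axons were also called, picked after their values were seen. Ppfia2, a liprin of synapse scaffolds, rose 11.3-fold against rtTA +DOX, where 1 of 2 arrays was above background (limma adjusted p = 0.0026). Its call held whichever array was left out, but not after normexp correction with quantile normalization. Lin7a, another synaptic scaffold, was at -0.51 and 1.30 in Oct4 +DOX and at -5.39 and -4.71 in rtTA +DOX (43.5-fold, adjusted p = 0.019), though 1 of its 5 probes had a change of -0.78. Neto1, a glutamate receptor partner, rose 10.6-fold (adjusted p = 0.019), and Unc5d, a netrin receptor, rose at least 5.55-fold (adjusted p = 0.039). Nppc, the precursor of C-type natriuretic peptide and not a gene of synapses, was at -2.17 and -0.08 in Oct4 +DOX and below background in rtTA +DOX at -7.70 and -7.75 (at least 50-fold, adjusted p = 0.019). Without rtTA +DOX replicate 1 and without replicate 2, calls ended for Lin7a (5.11 and 5.78), Neto1 (3.70 and 3.11), Unc5d (2.82 and 3.88) and Nppc (6.62 and 6.58). Without Oct4 +DOX replicate 2 they ended for the same 4 (4.54, 3.09, 3.49 and 5.56), and Unc5d (3.21) was also not called without Oct4 +DOX replicate 1. None of 21 enteric neuron and glia genes was called in limma, 2 were lower at an unadjusted p under 0.05 (6.87% of all genes), and their median change was -0.31.

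**Figure D3:**
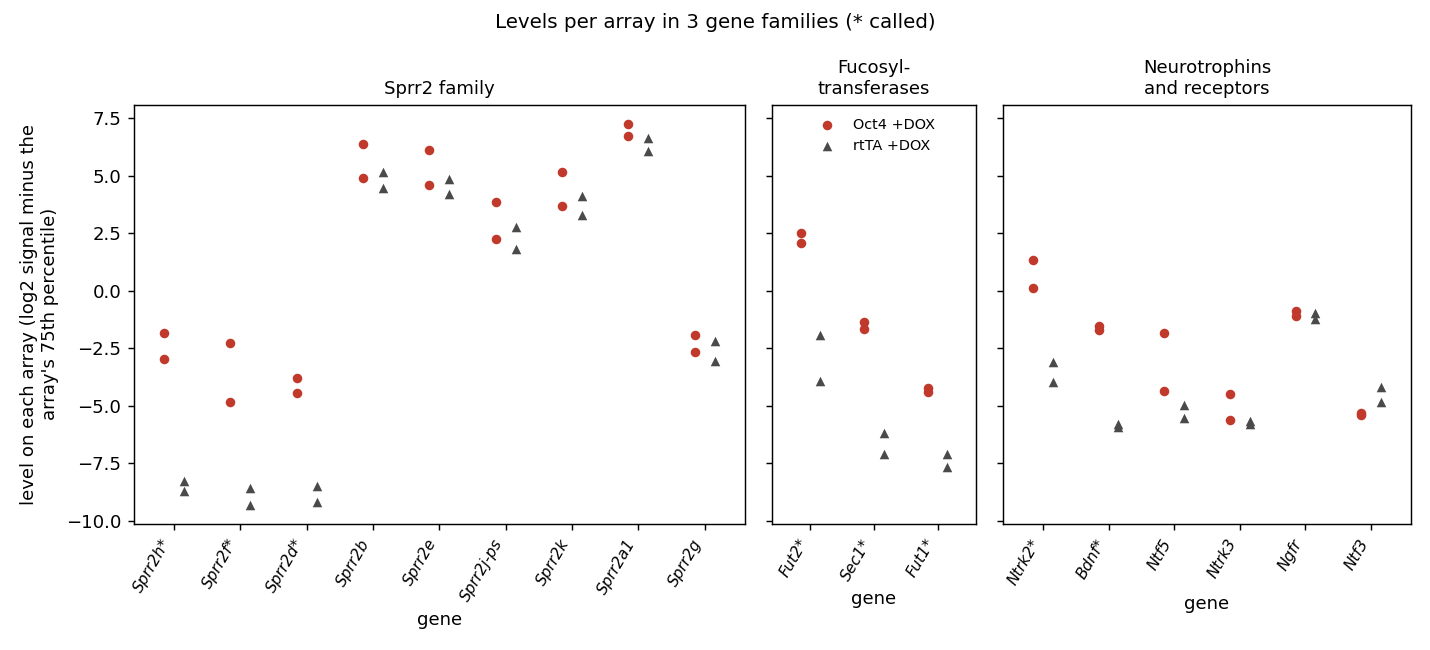
Each column is a gene of the Sprr2 family, of the alpha-1,2-fucosyltransferases or of the neurotrophins and their receptors, and the y axis is the level on each array (log2 signal minus the array's 75th percentile). Red circles are the 2 Oct4 +DOX arrays and grey triangles the 2 rtTA +DOX arrays; asterisks mark the 8 called genes, in which the groups stand apart, while Sprr2b, Sprr2e and Ngfr overlap.

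Enzymes that build the sugar ends of mucosal glycans changed in both directions. Fut2, which adds alpha-1,2-fucose in the gut epithelium, was at 2.51 and 2.05 in Oct4 +DOX and at -3.90 and -1.91 in rtTA +DOX (36.4-fold, limma adjusted p = 0.041). Sec1, its neighbour, was at -1.68 and -1.36 in Oct4 +DOX and below background in rtTA +DOX at -7.10 and -6.17 (at least 34.7-fold, adjusted p = 0.008). Fut1, the other alpha-1,2-fucosyltransferase gene, was at -4.40 and -4.21 in Oct4 +DOX and below background in rtTA +DOX at -7.08 and -7.66 (at least 5.48-fold, adjusted p = 0.0068). All 3 genes of the enzyme family rose, against 0.724% of all genes called higher. The family was put together after their values were seen, and genes bright only in Oct4 +DOX were tested through that group. This share is therefore no test of the family. Their probes lie within 59 kb on chromosome 7 of NCBI36/mm8 (45487534 to 45546900), matching each other at no more than 24 of 60 bases.

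B3galt5, a galactosyltransferase of type 1 chains, was at 4.45 and 3.28 in Oct4 +DOX and at -1.42 and -1.54 in rtTA +DOX (40.7-fold, log2 change 5.35 ± 0.60, limma adjusted p = 0.0075). St6galnac1, which caps mucin glycans with sialic acid, was below background in Oct4 +DOX at -8.24 and -7.86, against -2.44 and -2.06 in rtTA +DOX. The fall was at least 13.2-fold (-5.80 ± 0.44, adjusted p = 0.0011) and was called in every setting. Fut2 was the 1 called gene among 23 goblet cell genes tested, whose median change was -0.59. Muc2, the main secreted mucin, had a log2 change of -0.59, and Clca1 and Tff3 changes of 0.53 and 0.16, none of them called. Without rtTA +DOX replicate 1 the calls of Fut2 (4.19), Sec1 (4.65) and B3galt5 (5.41) ended, and without replicate 2 those of Fut2 (6.18), Fut1 (2.78) and B3galt5 (5.29). Without Oct4 +DOX replicate 2 those of Fut2 (5.41) and Sec1 (4.96) ended, and without Oct4 +DOX replicate 1 that of Fut2 (4.96).

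Genes of lipid handling also appeared on both sides, as single genes rather than as whole lists. Cd36, a fatty acid uptake receptor, was at 0.13 and 0.30 in Oct4 +DOX and at -2.86 and -2.05 in rtTA +DOX (6.37-fold, limma adjusted p = 0.047), the 1 called gene of 26 for lipid absorption and lipoproteins (median -0.25). Lpin1, a phosphatidate phosphatase, rose 4.54-fold (adjusted p = 0.011), Acacb, the mitochondrial acetyl-CoA carboxylase, 4.29-fold (adjusted p = 0.047) and Mboat2, a lysophospholipid acyltransferase, 9.22-fold (adjusted p = 0.019). Hao2, a peroxisomal hydroxyacid oxidase, was below background in Oct4 +DOX at -6.25 and -5.67, against -1.72 and -1.52 in rtTA +DOX, and was at least 19.4-fold lower in Oct4 +DOX (adjusted p = 0.0047). Acsm3, a medium-chain acyl-CoA synthetase, fell 7.35-fold (adjusted p = 0.038). None of 27 genes of fatty acid oxidation and ketogenesis was called in limma (median 0.39). At an unadjusted p under 0.05, 4 were higher and 1 lower, against 6.45% and 6.87% of all genes.

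These lipid calls did not hold in every fit with 1 array left out, and such fits have fewer degrees of freedom. Leaving out 1 array at a time gave log2 changes of 2.26 to 3.08 for Cd36, 2.01 to 2.19 for Acacb, 2.77 to 3.64 for Mboat2, 2.10 to 2.26 for Lpin1, -4.63 to -4.05 for Hao2 and -2.99 to -2.76 for Acsm3. Without either rtTA +DOX array none of the 6 was called. Cd36, Acacb and Acsm3 were not called without either Oct4 +DOX array, and Mboat2 not without Oct4 +DOX replicate 2.

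Of the tuft cell genes, which mark the chemosensory cells of the epithelium, Rgs13 was the 1 called of 16 tested (6.25%, against 1.01% of all genes). Their median change was 0.75. Rgs13, a regulator of G-protein signalling, was at 0.90 and 1.22 in Oct4 +DOX and at -1.64 and -1.79 in rtTA +DOX (6.83-fold, limma adjusted p = 0.0079). Lrmp, also named from tuft cells but not on the list, was at 3.42 and 4.36 in Oct4 +DOX and at 0.83 and 0.49 in rtTA +DOX (9.40-fold, adjusted p = 0.0056). The other tuft markers differed between the 2 Oct4 +DOX arrays. The brightest probe of Dclk1, a kinase that marks tuft cells, was at -1.72 and 1.41 in Oct4 +DOX, against -1.44 and -1.70 in rtTA +DOX, so the groups overlapped. Of its dimmer probes some overlapped and some did not, as at -2.96 and -1.89 in Oct4 +DOX against -4.77 and -4.53 in rtTA +DOX. Avil, an actin-binding protein, was at -1.75 and 1.13 in Oct4 +DOX and at -2.55 and -3.09 in rtTA +DOX (adjusted p = 0.23). Without Oct4 +DOX replicate 2 the median of the list was -0.24, so its direction rests on that array. Rgs13 was then not called (2.61), nor without rtTA +DOX replicate 1 (2.85) or 2 (2.70), and Lrmp was not called without either rtTA +DOX array (3.40 and 3.06).

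Olfactory receptor genes, which respond to odorants and are mostly silent outside the nose, supplied 7 of the rises. Of 908 on the array, 132 passed the filter on dim probes, and 7 were called higher and none lower in limma. These 7 are 5.30% of the receptors tested, against 0.724% of all genes tested. A receptor bright only in Oct4 +DOX passed the filter through that group. Of all receptors on the array the 7 are 0.771%, a share with another denominator. Of the 7, 6 were below background on both rtTA +DOX arrays. Olfr713 was at -3.10 and -3.93 in Oct4 +DOX and below background in rtTA +DOX at -8.46 and -8.66 (at least 9.55-fold, adjusted p = 7.8e-04). Olfr711 rose at least 5.31-fold (adjusted p = 0.0031) and Olfr714 at least 1.86-fold (adjusted p = 0.024; 1 of 2 Oct4 +DOX arrays was above background). The probes of these 3 lie within 102 kb on chromosome 7 (NCBI36/mm8). These 3 probes matched each other at 20 to 22 of 60 bases. Near-identical receptors can still share a probe, so the member is uncertain. Probes below background on all 4 arrays differed by a median of 0.76 in the same direction, and the part of this in the calls was not tested. Olfr713 and Olfr711 were called whichever array was left out, but not after normexp correction, and Olfr714 (2.44 to 3.74) was called only without Oct4 +DOX replicate 2.

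None of 26 Wnt target genes (median -0.46), 22 Notch and secretory fate genes (-0.45), 36 cell cycle and DNA replication genes (0.24) or 27 intestinal transcription factors (-0.12) was called in limma. At an unadjusted p under 0.05, 6 of the Wnt targets, 7 of the Notch genes, 1 of the cell cycle genes and 2 of the transcription factors differed, against 13.3% of all genes. The direction of the cell cycle median turned to -0.27 without Oct4 +DOX replicate 1 and to -0.15 without rtTA +DOX replicate 1, and that of the transcription factors to 0.12 without Oct4 +DOX replicate 1. Atoh1, the regulator of secretory fate, was at -3.11 and -2.56 in Oct4 +DOX and at -0.19 and -1.13 in rtTA +DOX (log2 change -2.17 ± 0.71, adjusted p = 0.23). Slc12a2, a crypt transporter, was at 0.14 and 0.47 in Oct4 +DOX and at 1.82 and 2.08 in rtTA +DOX (-1.65 ± 0.30, adjusted p = 0.051). The 1 called gene of 24 stem cell genes tested, Nr2e3, is known as a nuclear receptor of photoreceptors; it was at -5.54 and -4.38 in Oct4 +DOX and at -2.34 and -1.08 in rtTA +DOX (9.53-fold lower, adjusted p = 0.035). Its call ended whichever array was left out, at -3.88 to -2.62.

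Ileal identity was measured in both groups. Vil1, Cdx2, Fabp6, Slc10a2 and Cdh17, which mark ileal epithelium, were well above background on all 4 arrays, and none was called. Of 21 brush border enzyme genes the 1 called was Lrp2 (megalin), an endocytic receptor, which rose 11.6-fold (limma adjusted p = 0.031; median of the list -0.43). Of 21 xenobiotic cytochrome P450 genes the 1 called was Cyp2d34, at -1.08 and 0.16 in Oct4 +DOX and at -5.58 and -3.54 in rtTA +DOX (17.2-fold, adjusted p = 0.034), although the median of that list was -0.98. Sult1c2, a sulfotransferase, fell 5.37-fold (adjusted p = 0.024) and was the 1 called of 31 conjugation and redox enzymes (median -0.37). Of 25 stomach and foregut genes on the array, 14 were tested and 2 of them rose (14.3%, against 0.724% of all genes called higher). They were Trp63, counted above in the squamous list too, and the gastric trefoil factor Tff1 (4.49-fold, limma adjusted p = 0.043). The median of the list was 0.61, at dim median levels of -4.07 and -4.18 in Oct4 +DOX and -5.44 and -5.08 in rtTA +DOX. The part of the shift of background probes (median 0.76, same direction) in this was not tested. Genes bright only in Oct4 +DOX were tested through that group. Gkn1 of the stomach was below background on all 4 arrays. Gkn2, also of the stomach, was at -6.86 and -3.23 in Oct4 +DOX, above background on 1 array, and below background in rtTA +DOX at -9.34 and -8.67, and was not tested. Leaving out 1 array at a time gave log2 changes of 2.92 to 4.15 for Lrp2, 3.08 to 5.12 for Cyp2d34, -2.67 to -2.18 for Sult1c2 and 1.79 to 2.54 for Tff1. Without rtTA +DOX replicate 1 none of the 4 was called. Lrp2, Sult1c2 and Tff1 were not called without rtTA +DOX replicate 2, all 4 not without Oct4 +DOX replicate 2, and Sult1c2 not without Oct4 +DOX replicate 1.

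**Figure D4:**
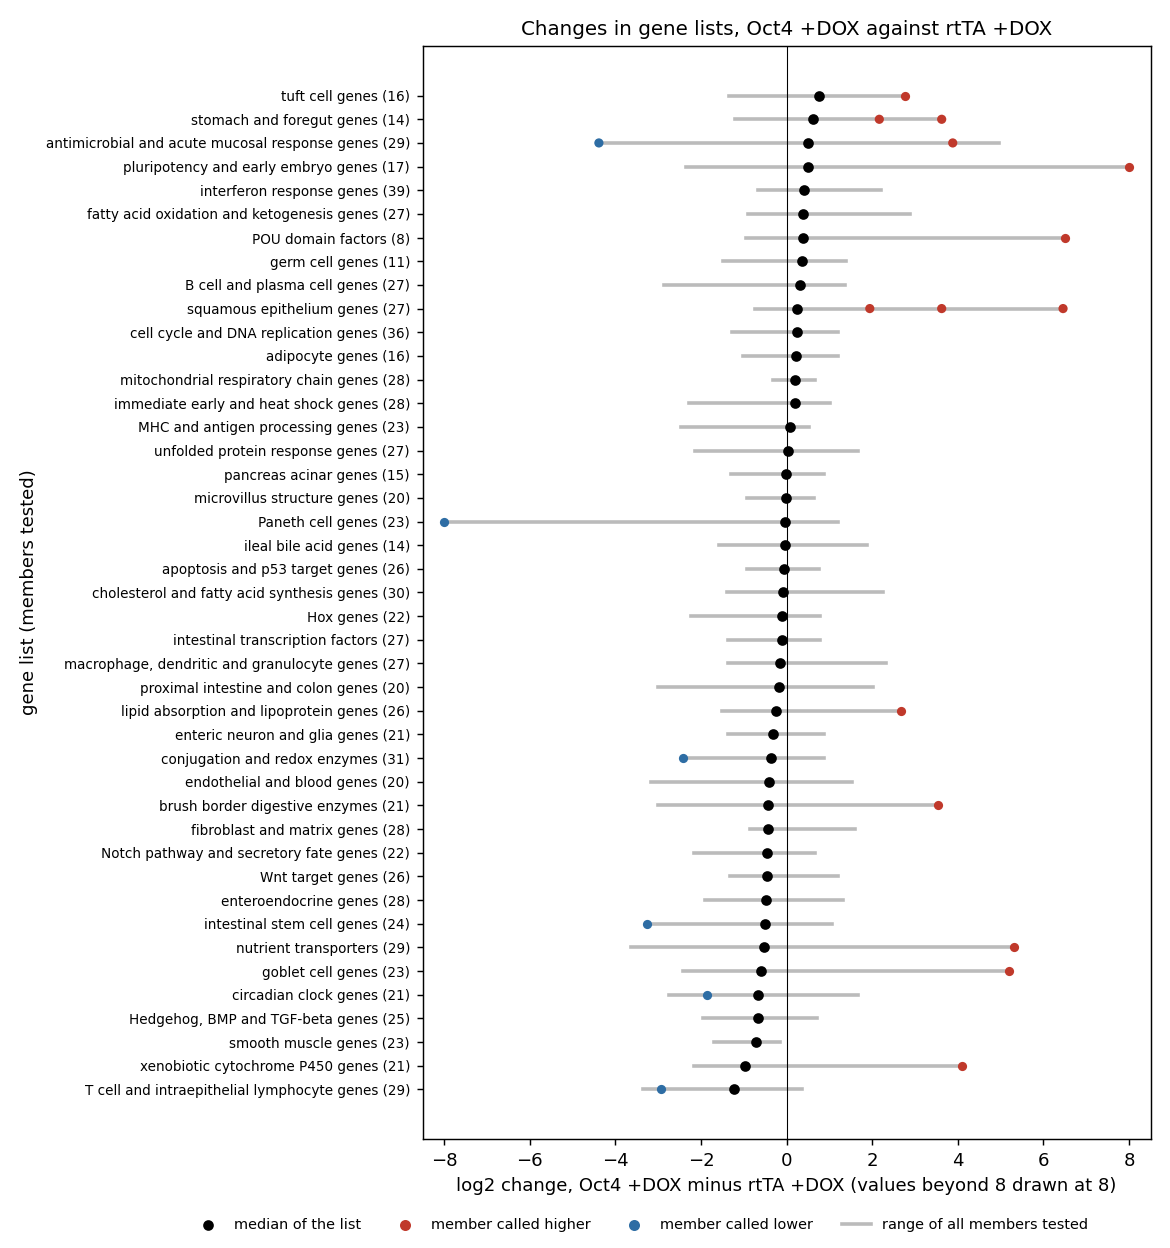
Rows are gene lists with the number of members tested, and the x axis is the log2 change of Oct4 +DOX minus rtTA +DOX. Grey lines span the members tested, cut at -8 and 8, black points are medians, and red and blue points are the members called higher and lower; the T cell list has the lowest median, -1.23, and the tuft cell list the highest, 0.75; sex-linked genes are not shown.

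Single immune genes were called in both directions. S100a9, a calcium-binding protein of neutrophils and inflamed epithelium, was at -1.33 and 0.01 in Oct4 +DOX and at -4.71 and -4.37 in rtTA +DOX (14.7-fold, limma adjusted p = 0.024). Ceacam10, a secreted carcinoembryonic antigen relative, was at -2.96 and -4.58 in Oct4 +DOX and at 1.11 and 0.12 in rtTA +DOX (20.9-fold lower, adjusted p = 0.02). These were the 2 called of 29 antimicrobial and acute mucosal response genes (6.90%, against 1.01% of all genes), whose median change was 0.50. Ccl28, a chemokine of mucosal epithelium, was at -4.11 and -4.07 in Oct4 +DOX and at -0.51 and -0.39 in rtTA +DOX (-3.64 ± 0.66, adjusted p = 0.0503), and Pigr, which carries IgA across the epithelium, had a change of -2.55 ± 0.50 (adjusted p = 0.063). Neither was called. S100a9 (3.71 and 4.05) and Ceacam10 (-3.89 and -4.88) lost the call without rtTA +DOX replicate 1 and without replicate 2, and without Oct4 +DOX replicate 2 (3.21 and -3.57).

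The T cell and intraepithelial lymphocyte list had the lowest median of the 44 lists, -1.23, with 26 of 29 members below 0. Its median level was -2.72 and -2.40 on the Oct4 +DOX arrays and -0.92 and -1.21 on the rtTA +DOX arrays. Only Prf1 (perforin) was called, below background in Oct4 +DOX at -7.16 and -6.84, against -3.76 and -4.37 in rtTA +DOX (at least 3.77-fold lower, limma adjusted p = 0.028). At an unadjusted p under 0.05, 17 members were lower, against 6.87% of all genes, among them Klrd1 (-2.55 ± 0.52, adjusted p = 0.068) and the gut-homing receptor Ccr9 (-1.77 ± 0.42, adjusted p = 0.0998). The call of Prf1 ended whichever array was left out (-3.24 to -2.64). None of 39 interferon response genes was called in limma (median 0.40), with 33 above 0 and 8 higher at an unadjusted p under 0.05 (6.45% of all genes), led by Oas2 at 2.20 ± 0.44 (adjusted p = 0.063). None of 23 genes of MHC and antigen processing was called in limma, with 8 lower at an unadjusted p under 0.05 (6.87% of all genes). H2-DMa was at -1.14 and -0.77 in Oct4 +DOX and at 1.91 and 1.13 in rtTA +DOX (-2.47 ± 0.46, adjusted p = 0.053). The median of that list, 0.08, turned negative in 5 of the 14 alternatives.

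No gene listed for the tissue around the epithelium was called. At the 1 probe that stood for each gene, all 23 smooth muscle genes had negative changes (median -0.71, which ranged from -1.20 to -0.21 over the alternatives, none called in limma, 1 at an unadjusted p under 0.05), as did 24 of 28 fibroblast and matrix genes (median -0.44, none called in limma and 1 higher at an unadjusted p under 0.05). Another bright probe of Acta2, smooth muscle actin, was at 4.59 and 5.41 in Oct4 +DOX and at 4.84 and 4.33 in rtTA +DOX. The remaining Acta2 probes were lower on average in Oct4 +DOX. Of all genes, 6.45% were higher and 6.87% lower at an unadjusted p under 0.05. The adipocyte list had a median of 0.23 (-0.25 without rtTA +DOX replicate 1). Myh11, smooth muscle myosin, was at 2.07 and 3.38 in Oct4 +DOX and at 3.58 and 3.80 in rtTA +DOX (-0.97 ± 0.68, adjusted p = 0.61). The part of sample composition in the other changes was not tested. Of 21 circadian clock genes, Nr1d2 (Rev-erb beta) fell 3.64-fold (-1.86 ± 0.32, adjusted p = 0.041), with its call ended whichever array was left out (-2.13 to -1.60), and the median of the list was -0.67.

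The largest fall of all genes tested was that of Defa21. Defa21 encodes an alpha-defensin, an antimicrobial peptide of Paneth cells. It was below background in Oct4 +DOX at -8.34 and -7.97, against 6.92 and 7.89 in rtTA +DOX, at least 10657-fold lower (log2 change -15.56 ± 0.61, limma adjusted p = 6.4e-05), and was called in every setting. It was also high in Sox2xOct4 +DOX, at 6.43 and 8.35. None of the other 9 alpha-defensin genes tested was called. Defa5 was at 7.72 and 7.84 in Oct4 +DOX and at 7.25 and 8.24 in rtTA +DOX (0.04 ± 0.53, adjusted p = 0.99), and Defa39 was at 4.75 and 3.56 in Oct4 +DOX and at 6.28 and 7.32 in rtTA +DOX (-2.64 ± 0.65, adjusted p = 0.11). Its probe matched those of the other 9 at 17 to 34 of 60 bases, but alpha-defensin genes are close copies, so which of their transcripts it reads is uncertain. Slide, genotype and any difference in the mice's genetic background cannot be told apart in this value, although all samples are labelled C57BL/6. Of 23 Paneth cell genes Defa21 alone was called (median -0.03, which turned positive without Oct4 +DOX replicate 1 and without rtTA +DOX replicate 2), and Lyz1, the Paneth cell lysozyme, and Mmp7, which activates defensins, had changes of -0.37 and 0.59.

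**Figure D5:**
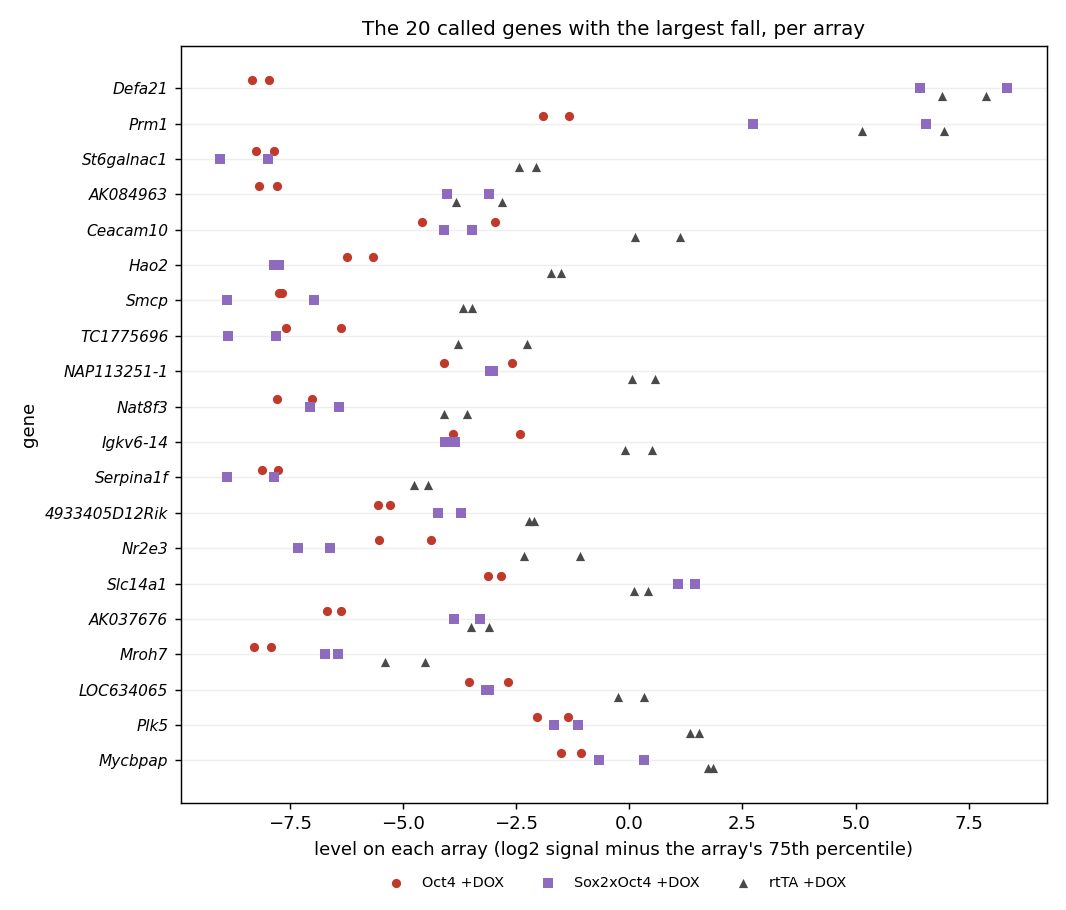
Rows are the 20 called genes with the largest fall in Oct4 +DOX against rtTA +DOX, and the x axis is the level on each array (log2 signal minus the array's 75th percentile). Red circles are the 2 Oct4 +DOX arrays, purple squares the 2 Sox2xOct4 +DOX arrays and grey triangles the 2 rtTA +DOX arrays; Defa21 was below background only on the Oct4 +DOX arrays, and St6galnac1 on both the Oct4 +DOX and the Sox2xOct4 +DOX arrays.

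Isoc1, an isochorismatase-domain protein, fell evenly across the arrays. It was at 1.21 and 1.22 in Oct4 +DOX and at 4.11 and 4.03 in rtTA +DOX (7.23-fold lower, log2 change -2.85 ± 0.26, limma adjusted p = 0.0024), called in every setting. Slc14a1, a urea transporter, was at -3.13 and -2.84 in Oct4 +DOX and at 0.10 and 0.42 in rtTA +DOX (9.46-fold lower, adjusted p = 0.018). Plk5, a polo-like kinase, was at -1.35 and -2.04 in Oct4 +DOX and at 1.35 and 1.53 in rtTA +DOX (8.78-fold lower, adjusted p = 0.024). Prm1, a protamine of sperm, was at -1.91 and -1.33 in Oct4 +DOX and at 5.15 and 6.95 in rtTA +DOX (204-fold lower, adjusted p = 0.029), but its other tested probe had a change of 2.10, so its direction is uncertain. Without 1 array at a time Slc14a1 stood at -3.40 to -3.08, Plk5 at -3.48 to -2.79 and Prm1 at -8.57 to -6.77. None of the 3 was called without rtTA +DOX replicate 1, without rtTA +DOX replicate 2 or without Oct4 +DOX replicate 2, nor Slc14a1 and Prm1 without Oct4 +DOX replicate 1.

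The Sox2xOct4 +DOX mice carry the same kind of transgene together with TetON-Sox2, and the direct test between the groups shows where Oct4 alone differed. Of 19051 genes, 830 (4.36%) were called between them, 381 (2%) higher and 449 (2.36%) lower in Oct4 +DOX; this test shares the Oct4 +DOX arrays with the one above. Sox2xOct4 +DOX against rtTA +DOX gave 1209 genes (6.35%), 608 (3.19%) higher and 601 (3.15%) lower, and shares the rtTA +DOX arrays. Pou5f1 was 13.1-fold higher in Oct4 +DOX than in Sox2xOct4 +DOX, whose arrays stood at 2.64 and 0.92 (log2 difference 3.71 ± 0.62, limma adjusted p = 0.019). The level of Pou5f1, the presence of a Sox2 transgene, the slide and the software version differed together between these groups. The brightest Xist probe was at 2.98 and 3.89 in Sox2xOct4 +DOX, as in females, and at -6.80 and 2.62 in Oct4 +DOX. These differences cannot be told apart in the comparison.

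Several genes that rose with Oct4 alone were far higher there than with both factors. Bdnf was 23-fold higher in Oct4 +DOX than in Sox2xOct4 +DOX, where it was at -6.03 and -6.29 (4.52 ± 0.28, limma adjusted p = 4.7e-04). Pou3f1 was 83.3-fold higher (6.38 ± 0.61, adjusted p = 0.0023), B3galt5 76.3-fold (6.25 ± 0.60, adjusted p = 0.0024), Tuba8 93.2-fold (6.54 ± 0.55, adjusted p = 0.0013) and Asb9 at least 55-fold (7.51 ± 0.58, adjusted p = 0.0012). Ntrk2 (4.57 ± 0.58, limma adjusted p = 0.0069), Rgs13 (2.74 ± 0.32, adjusted p = 0.0046) and Sprr2h (5.89 ± 0.47, adjusted p = 0.0012) were higher too. Sprr2h was below background in Sox2xOct4 +DOX at -8.84 and -7.76, so the size of its difference is not a measured fold. Defa21 was at least 10562-fold lower in Oct4 +DOX than in Sox2xOct4 +DOX (-15.54 ± 0.61, adjusted p = 6.5e-05), and Slc14a1 was 19-fold lower (-4.25 ± 0.44, adjusted p = 0.0032).

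Other genes were not called between the groups. Stx19 was at -3.31 and -3.21 in Sox2xOct4 +DOX and differed from Oct4 +DOX by -0.12 ± 0.38 (limma adjusted p = 0.89). Krt6a differed by -0.60 ± 0.93 (adjusted p = 0.75), Cited1 by -1.33 ± 0.92 (adjusted p = 0.43), Lin7a by -0.08 ± 0.76 (adjusted p = 0.96), Cd36 by -0.65 ± 0.48 (adjusted p = 0.47) and Isoc1 by -0.38 ± 0.26 (adjusted p = 0.43). With 2 arrays a group these errors leave room for differences of several fold in Krt6a, Cited1 and Lin7a. Cfap299, a cilium and sperm protein, was lower in Oct4 +DOX than in Sox2xOct4 +DOX, at -2.94 and -1.36 against 1.03 and 2.34 (14.3-fold, adjusted p = 0.03), and was 20.1-fold higher in Oct4 +DOX than in rtTA +DOX (adjusted p = 0.041), where 1 of 2 arrays was above background. Its call against rtTA +DOX ended without Oct4 +DOX replicate 2 (3.54), rtTA +DOX replicate 1 (4.81) and rtTA +DOX replicate 2 (3.85).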

How the data were processed

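Total RNA of adult mouse ileum was amplified, labelled with Cy3 and hybridised to one-colour Agilent arrays, per the labels' protocols. Per the file headers, the deposited intensity values are processed signals of Agilent Feature Extraction: background was subtracted and a spatial trend removed, dim spots carry surrogate signals, and arrays were not normalized to each other. The submitters' processing notes name version 9.1, while the file headers give 10.7.3.1 for Oct4 +DOX and 10.7.1.1 for rtTA +DOX and Sox2xOct4 +DOX, so version and group cannot be told apart. Outlier and control spots were left out, spots of a probe averaged, and log2 signal minus the array's 75th percentile taken (41143 probes). A probe was kept if any of the 5 groups had it well above background on its 2 arrays (28760), and the brightest stood for each gene (19051). Names came from RefSeq (80.3% of probes) or the files.

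The test was limma 3.58.1 (R 4.3.3), fitted to all 10 arrays with a mean for each group, which left 5 residual degrees of freedom, and p-values were adjusted by Benjamini-Hochberg over all genes. The median standard error was 0.39, and the number of arrays limits the precision. Named genes were Pou5f1, Sox2, Nanog and Cdx2, the 20 largest rises and falls, up to 4 genes a list by smallest p, called list members and genes called in every alternative; others were chosen after their values were seen, and not every gene that meets the rule is reported here. Groups, members and lists were chosen with earlier results of these data known. Alternatives were other background correction, normalization, filters, fits and probes, and leaving out each array. Scripts were tested on simulated data. The authors' normalized table, of other groups, was not used.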

Additional observations from a re-analysis of the deposited data

How the results depend on the processing

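Against the 192 genes called in Oct4 +DOX against rtTA +DOX (138 higher, 54 lower), normexp correction (offset 50, which shrinks changes of dim probes) with quantile normalization gave 111 (84 higher, 27 lower), of which 78 were shared. A fit to the 6 arrays of slides 2 and 3 gave 86 (60 higher, 26 lower), of which 75 were shared. Quantile normalization gave 272 (87 lower, 68% higher against 71.9% in the percentile scaling), and no filter on dim probes 143 (29 lower, 79.7% higher); without the filter the median change of all genes was 0.18. Leaving out 1 array gave 35 to 191 genes (28 to 153 higher, 7 to 38 lower); these fits have fewer degrees of freedom and take the spread of the remaining array from the rest. The replicate number as a block gave 215 genes, of which 172 were shared; same-numbered samples did not deviate together (correlation -0.03), so they share only a number. Between Oct4 +DOX and Sox2xOct4 +DOX, where alternatives were chosen after seeing the data, 830 genes became 546 without the filter, 401 in the 6-array fit and 324 to 484 with 1 array left out. No called gene changed sign in any alternative. Leaving out 1 array could not change a sign, since the arrays of the groups did not overlap in these genes. With all probes, the probe with the smallest p stood for each gene. The slide could not be fitted as a block, since each group lay on 1 slide. Probes near background, where surrogate signals stand, limit the fold of 53 rises and 27 falls to bounds.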
